A study of Homo sapiens with 4 samples.

Results

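The H3K27ac peaks of untreated K562 cells are described here: 38526 peaks in 1 chromatin immunoprecipitation library, out of 103923 peaks in the 4 lists of the series. K562, an established human cell line, comes from the blast crisis of a chronic myeloid leukaemia and has erythroid features. The cells were kept in medium with 10% serum and incubated for 18 h without daunorubicin, the drug given at 1 uM to the treated cells of the series, which are not compared here. The untreated H3K27ac list held 38626 peaks. Of these, 87 were left out because they lay on sequences other than chromosomes 1 to 22 and X, and 13 because they overlapped a peak of the untreated input library, which was sequenced without an antibody. With 1 library there are no replicates, so no value below has a replicate check and no test was made. Intervals are 95% Wilson intervals and cover counting error only.

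H3K27ac is acetylation of lysine 27 on histone H3, placed by the acetyltransferases CBP and p300. It flanks active promoters and active enhancers, and is absent from genes held silent by Polycomb or by heterochromatin. In erythroid cells GATA1, TAL1 and LMO2 act in one DNA-bound complex that drives red cell genes, among them the globins, and KLF1 acts beside them at adult globin and membrane genes. In K562 the BCR-ABL1 fusion kinase signals through STAT5 and the RAS pathway.

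The promoters on which the description turns are shown first, as the 250 bases before the outermost annotated start, read 5′ to 3′ on the strand of the gene from the RefSeq promoter table of GRCh38.p14, the build of the peaks. Capitals mark the letters of 10 motifs searched on either strand. Those of erythroid factors were AGATAA for the GATA family, TGANTCA for NFE2 and CCACNCCC, the CACCC motif, for the KLF family. The general promoter elements were the CCAAT box by its own letters, the GC box as GGGCGG and the TATA box as TATAAA. The other motifs were CCGGAAGT for the ETS family, GCATGCGC for NRF1, TGACGTCA for the cyclic AMP response element or CRE, and AAGATGGC for YY1. Matches of different motifs may overlap, as the GC boxes of TAL1 do with each other. An E-box, CANNTG, was searched too and is not marked because 64.6% of all promoters hold it. A match is a description of the letters and not a binding site, and variants of the letters were not searched.

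Among strongly marked promoters, NUP214 and YDJC belong to the gene-end peaks of the highest scores. MED15, TPGS1 and NDUFS7 are high-scoring examples with ETS, YY1 and NRF1 letters, in that order, before the start. They are not a ranking of all promoters with these letters. YDJC and MED15 lie in a stretch of chromosome 22 with high gene-end scores, described below. NUP214 (chr9:131125336-131125585, plus strand) encodes a nuclear pore protein, MED15 (chr22:20507360-20507609, plus strand) a Mediator subunit and NDUFS7 (chr19:1383657-1383906, plus strand) a subunit of respiratory complex I. TPGS1 (chr19:507247-507496, plus strand) encodes a subunit of a tubulin polyglutamylase, and YDJC lies at chr22:21630023-21630272 on the minus strand. All 5 windows overlapped a peak, with scores of 744, 784, 650, 640 and 581 for NUP214, YDJC, MED15, TPGS1 and NDUFS7.
NUP214: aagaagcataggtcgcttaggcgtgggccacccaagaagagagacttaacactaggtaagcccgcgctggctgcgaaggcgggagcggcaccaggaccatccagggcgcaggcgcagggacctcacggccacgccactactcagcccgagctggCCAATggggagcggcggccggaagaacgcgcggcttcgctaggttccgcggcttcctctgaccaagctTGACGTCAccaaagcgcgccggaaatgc
YDJC: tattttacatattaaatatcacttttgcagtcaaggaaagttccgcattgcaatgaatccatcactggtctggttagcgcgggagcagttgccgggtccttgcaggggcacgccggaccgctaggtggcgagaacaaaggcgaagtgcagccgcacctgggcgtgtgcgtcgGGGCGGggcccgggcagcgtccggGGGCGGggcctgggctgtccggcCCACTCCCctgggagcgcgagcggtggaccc
MED15: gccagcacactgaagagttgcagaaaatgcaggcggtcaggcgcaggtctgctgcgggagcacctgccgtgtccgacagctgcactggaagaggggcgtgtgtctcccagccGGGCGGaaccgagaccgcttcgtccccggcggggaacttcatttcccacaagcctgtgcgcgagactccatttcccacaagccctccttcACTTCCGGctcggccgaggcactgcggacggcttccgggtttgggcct
TPGS1: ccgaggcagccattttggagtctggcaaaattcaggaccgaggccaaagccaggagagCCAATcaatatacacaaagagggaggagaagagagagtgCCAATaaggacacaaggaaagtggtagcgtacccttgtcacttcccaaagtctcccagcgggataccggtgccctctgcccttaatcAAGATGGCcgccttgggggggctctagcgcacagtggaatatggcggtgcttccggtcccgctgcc
NDUFS7: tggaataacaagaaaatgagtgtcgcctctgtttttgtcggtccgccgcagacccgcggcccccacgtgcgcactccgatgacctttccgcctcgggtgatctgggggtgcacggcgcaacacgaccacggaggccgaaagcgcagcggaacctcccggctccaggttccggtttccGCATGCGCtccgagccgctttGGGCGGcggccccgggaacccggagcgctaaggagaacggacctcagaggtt

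Among lineage genes, the erythroid regulators shown are TAL1 (chr1:47232336-47232585, minus strand), GATA1 (chrX:48786340-48786589, plus strand) and KLF1 (chr19:12887202-12887451, minus strand). Their promoters are set beside those of a pair with no peak at an end. BCL11A (chr2:60553925-60554174, minus strand) encodes a repressor of fetal globin genes, and ALB (chr4:73404037-73404286, plus strand) encodes serum albumin, a liver protein. The upstream windows of TAL1 and GATA1 are not themselves covered: their peaks begin inside the gene. The letters AGATAA stand in the TAL1 window only among these 5. TGATAA, a variant that was not searched, stands in the ALB window and, read on the other strand, in the KLF1 window.
TAL1: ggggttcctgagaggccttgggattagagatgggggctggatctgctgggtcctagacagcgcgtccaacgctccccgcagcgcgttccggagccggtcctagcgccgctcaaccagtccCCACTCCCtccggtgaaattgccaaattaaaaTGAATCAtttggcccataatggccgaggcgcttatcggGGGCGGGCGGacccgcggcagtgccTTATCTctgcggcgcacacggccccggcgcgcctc
GATA1: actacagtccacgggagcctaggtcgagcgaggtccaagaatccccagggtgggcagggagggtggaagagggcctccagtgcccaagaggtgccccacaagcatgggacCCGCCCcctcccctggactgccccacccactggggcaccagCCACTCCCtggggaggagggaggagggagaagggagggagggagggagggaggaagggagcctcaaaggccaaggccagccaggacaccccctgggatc
KLF1: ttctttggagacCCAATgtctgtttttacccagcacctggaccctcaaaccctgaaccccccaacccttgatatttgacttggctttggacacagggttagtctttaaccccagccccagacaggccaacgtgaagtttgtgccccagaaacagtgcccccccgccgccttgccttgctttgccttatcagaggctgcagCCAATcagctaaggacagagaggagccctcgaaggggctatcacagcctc
BCL11A: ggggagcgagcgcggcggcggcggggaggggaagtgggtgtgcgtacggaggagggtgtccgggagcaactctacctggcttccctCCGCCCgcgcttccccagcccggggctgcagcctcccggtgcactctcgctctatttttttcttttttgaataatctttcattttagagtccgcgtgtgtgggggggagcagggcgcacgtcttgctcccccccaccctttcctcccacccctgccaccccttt
ALB: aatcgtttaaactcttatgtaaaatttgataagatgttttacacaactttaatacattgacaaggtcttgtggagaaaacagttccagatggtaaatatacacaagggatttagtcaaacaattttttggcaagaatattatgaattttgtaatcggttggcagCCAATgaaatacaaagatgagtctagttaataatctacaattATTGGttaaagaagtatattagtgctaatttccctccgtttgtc

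Most peaks lay away from gene ends, but the highest scores lay at them. A peak was placed at a gene end if 1 kb or less separated it from the first or last annotated base of a RefSeq gene, in a gene body if it overlapped a gene elsewhere, and otherwise in intergenic sequence. Gene ends held 14286 peaks (37.1%, interval 36.6 to 37.6), gene bodies 17075 (44.3%, 43.8 to 44.8) and intergenic sequence 7165 (18.6%, 18.2 to 19). The peaks covered 35.9 Mb in all, of which 17.9 Mb lay in gene-end peaks. Gene-end peaks were wider, with a median of 1246 bp against 591 bp in gene bodies and 628 bp in intergenic sequence. Their median score, the value that the authors deposited with each peak, was 146, against 29 in gene bodies and 33 in intergenic sequence. Over all peaks the median score was 43, with quartiles of 24 and 120.

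When the peaks were ranked by score and cut into 10 bins of equal size, the share at a gene end fell in each step from the highest bin to the lowest. It was 89.8% (88.8 to 90.7) among scores of 245 to 876, 64.4% (62.8 to 65.9) in the third bin and 11.3% (10.3 to 12.3) among scores of 10 to 17. Gene bodies held 7.53% of the highest bin and 67.5% of the lowest. The intergenic share rose from 2.65% in the highest bin to 25.6% in the seventh bin and was 21.3% in the lowest.

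**Figure D1:**
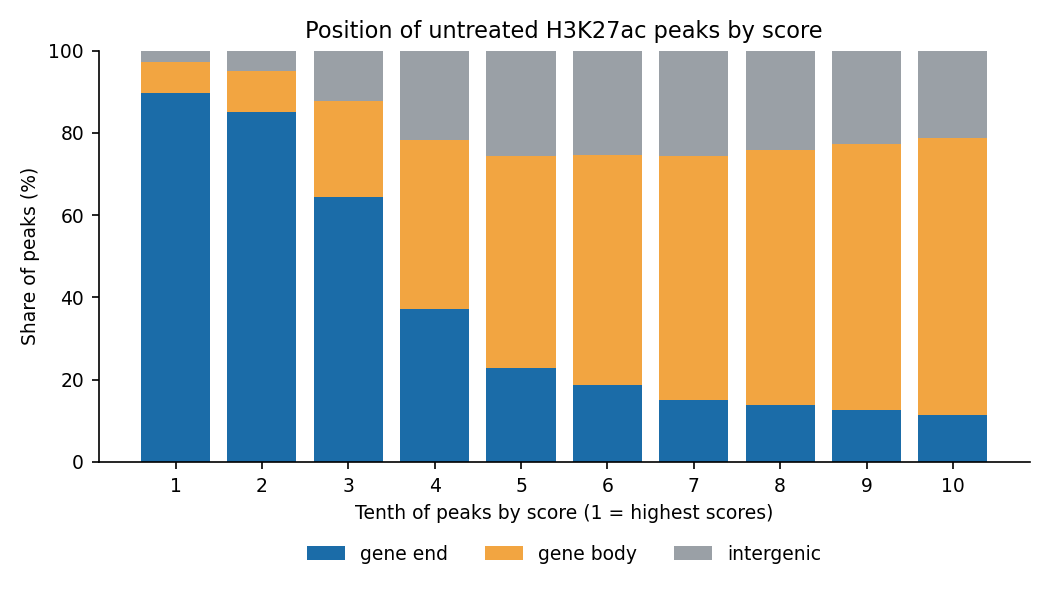
Share of untreated H3K27ac peaks (vertical axis, %) at gene ends, in gene bodies and in intergenic sequence, in 10 bins of equal size ranked by score (horizontal axis, bin 1 highest). The gene-end share falls from 89.8% in bin 1 to 11.3% in bin 10.

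Of the gene-end peaks, 9763 (68.3%, 67.6 to 69.1) lay within 1 kb of an annotated start in the promoter table. The table has no start for some genes and the gene table gives no strand, so the other 4523 gene-end peaks could not be divided into starts and 3′ ends. A further 1081 peaks outside gene ends lay at a start inside a gene, that is, at an alternative promoter. They made up 48.2% (43.3 to 53.2) of the 392 distal peaks (those not at a gene end) in the highest score bin and 1.02% of the 3418 in the lowest. Peaks over 5 kb from every annotated end and start numbered 17198, 44.6% of all, with a median score of 29 and quartiles of 20 and 46.

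Around the outermost starts of marked protein-coding genes, peak cover was highest 200 bp downstream of the start, where 91.6% of the marked promoters were covered. It was 86.48% at the start itself. Promoters without a divergent partner, that is, with no start on the other strand within 1 kb upstream, were covered more downstream than upstream: 35.52% at 1000 bp downstream against 15.95% at 1000 bp upstream. Divergent promoters showed the reverse, with 26.59% downstream and 39.26% upstream, where the partner gene begins. At 5000 bp on either side the cover of marked promoters was 2.62% upstream and 1.51% downstream.

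**Figure D2:**
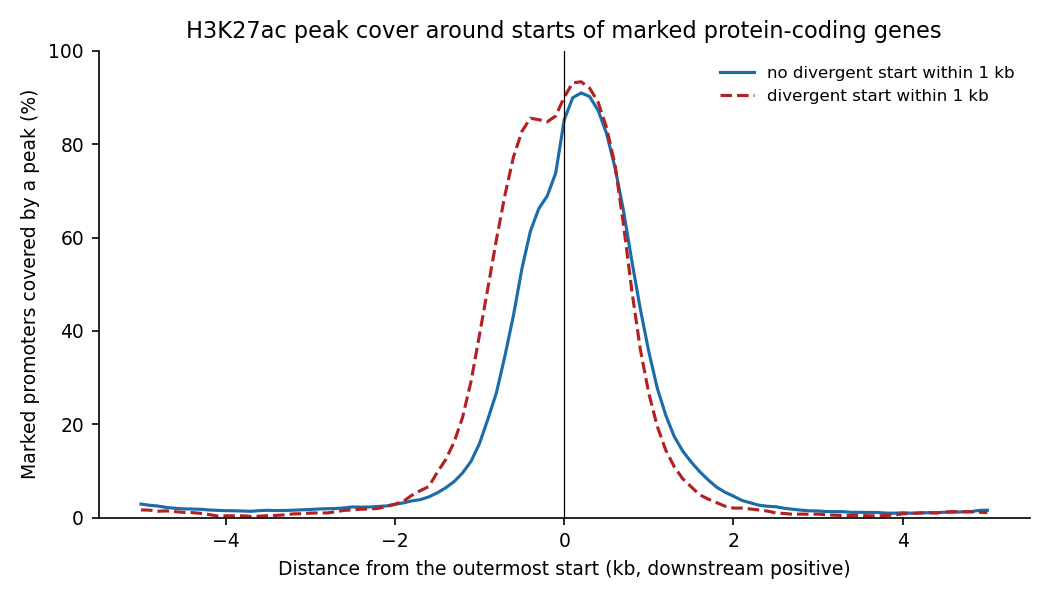
Share of marked promoters covered by an H3K27ac peak (vertical axis, %) by distance from the outermost annotated start (horizontal axis, kb, downstream positive), for genes without a divergent start within 1 kb (solid line) and with one (dashed line). Both lines are highest 200 bp downstream, at 90.97% and 93.36%, and the dashed line has a shoulder upstream of the start.

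Score and width rose together over all peaks, with a Spearman correlation of 0.69 across 38526 peaks that share 1 library. At gene ends the score did not go on rising with width. Its median was 28 for gene-end peaks under 500 bp, 182 from 1000 to 1500 bp and 208 from 1500 to 2000 bp, then 166 from 2500 to 3000 bp and 141 from 3000 bp upwards. The widest peak, 4208 bp at MAML3, a Notch coactivator gene, had a score of 90. Others among the 10 widest lay at RCC1 with SNHG3 (4163 bp, score 90), MLLT6 (4093 bp, score 129), HNRNPF (3847 bp, score 158) and the cohesin gene STAG2 (3711 bp, score 178). An intergenic peak of 4170 bp and score 57 lay 8726 bp from CD70. None of the 10 widest peaks had a score in the highest bin.

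The 15 gene-end peaks of the highest score included protein-coding genes of varied function and noncoding RNA genes. The first of them (score 848) covered the start of LZTR1, an adaptor of a ubiquitin ligase that acts on RAS proteins, and the end of the neighbouring gene AIFM3. LINC01003 (834) and LINC01311 (805), both long noncoding RNA genes, followed. Then came YDJC (784), the zinc finger gene ZNF74 (773), the cyclophilin gene PPIL2 (748) and NUP214 (744). SFPQ (743) encodes a splicing factor, TRIM24 (728) a chromatin reader and UQCRFS1 (696) the Rieske protein of respiratory complex III. MATN1-AS1 had a score of 700, C22orf39 of 679, the ESCRT-III gene CHMP3 of 667, SEPT5-GP1BB of 664 and the lipoyl transferase gene LIPT2 of 657. Of these 15 peaks, 7 lay on chromosome 22: LZTR1, LINC01311, YDJC, ZNF74, PPIL2, C22orf39 and SEPT5-GP1BB.

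All 7 came from one stretch of chromosome 22, from 19 to 22 Mb, which was singled out after its values were seen. Its 51 gene-end peaks had a median score of 416 (quartiles 202 and 566), against 114 at the 315 gene-end peaks in the rest of the chromosome and 146 at the 14235 on all of the other sequence. Distal peaks differed little: the median was 33.5 in the stretch, 31 in the rest of the chromosome and 30 elsewhere. The stretch held 22 gene-end peaks and 1 distal peak of the 200 highest-scoring peaks. Windows of 1 Mb with at least 5 gene-end peaks numbered 1083, and the median gene-end score of a window had a median of 148 and an upper 2.5% point of 282. The window from 19000001 to 20000000 had the highest of these medians, 495, and the 2 windows after it had 420.5 and 338.0. The BCR gene, the chromosome 22 partner of the fusion, lies above this stretch and had a gene-end peak of score 652 (chr22:23180031-23181644), which is also within 1 kb of an end of RSPH14. On chromosome 9 the fusion partner ABL1 had one of 339 over its start. NUP214 lies beyond ABL1, and the 7 gene-end peaks of its window, from 131 to 132 Mb, had a median of 188. K562 is known for extra copies of the BCR-ABL1 fusion. DNA copy number was not measured here, and its part in these scores was not tested. One of the 13 peaks removed for overlap with an input peak also lay there (chr22:21555476-21556970, score 135).

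Outside gene ends the highest score of the whole list, 876, belonged to a peak inside UBE2L3, a ubiquitin-conjugating enzyme gene in the same stretch of chromosome 22 (chr22:21567425-21569145). It lay 15964 bp from the nearest end of a protein-coding gene, RIMBP3C, and over 5 kb from every annotated end and start. Of the 15 highest-scoring distal peaks, 7 lay at an annotated start away from the outermost ends: those in CIZ1 (710), KLHL8 (614), HNRNPH1 (558), ATL2 (553), SLC39A10 (548) and PHF19 (534), and the one 15115 bp from TTLL10 (538). The peak inside ATAD2 (566) and the intergenic peaks near SPAG6 (544) and BAHCC1 (526) were not at such a start but lay within 5 kb of an annotated end or start. The other 5 were away from both. Besides UBE2L3 these were intergenic peaks 11091 bp from CHST5 (664), 26135 bp from the chromatin remodeller gene CHD7 (546) and 20544 bp from ZNF627 (523), and a peak inside the Hippo kinase gene STK3 (545).

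Of 19974 protein-coding genes, 11698 were marked at an end, that is, by a peak no more than 1 kb from it (58.6%, interval 57.9 to 59.2). After all peaks had been shifted by 100 kb the share was 13.9%. Of the 15812 protein-coding genes with a start in the promoter table, 61.4% had one at or near a start, by the same distance. A gene-end peak with a score in the upper quartile of the list was present at 43.1% of the protein-coding genes. A further 24.5% had a peak within 50 kb but none at an end, so that 83% had one within 50 kb and 17% had none. The marked length, counted as the bases under peaks in the 50 kb around each end of a gene, had a median of 3551 bp. Among chromosomes the share of marked protein-coding genes ran from 44.4% (38.2 to 50.7) on chromosome 21 and 45.3% (42.0 to 48.6) on X to 65.2% on chromosome 16 and 66.1% (61.6 to 70.3) on chromosome 22.

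The shares below are read against the 58.6% of all protein-coding genes. Gene lists were curated or defined by symbol, 37 in all: 13 had an interval above that share, 16 below it, and 8 intervals held it. Machinery genes were marked nearly throughout. All 22 spliceosome core genes and all 27 genes of RNA polymerase II and Mediator had a peak at an end, with median scores of 246 and 220. So did 82 of 84 cytosolic ribosomal protein genes, 75 of 77 mitochondrial ribosomal protein genes, 34 of 35 tRNA synthetase genes, 34 of 36 complex I genes, 31 of 33 DNA replication genes and 35 of 39 proteasome genes. The members without a peak at an end included RPL10L, a retrogene copy with a testis-restricted pattern (nearest peak 586234 bp away), and the proteasome genes PSMB11 and PSMA8, whose products belong to thymus and testis forms, with nearest peaks 6911 bp and 32722 bp from an end. In the replication list ORC1 and RPA3 had no peak at an outermost end, but ORC1 had one of score 291 at an annotated start inside the gene. CDC45 (587), RPA2 (483) and MCM3 (449) had the highest scores in the list. The CDC45 peak lies in the chromosome 22 stretch and is also at an end of UFD1.

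**Figure D3:**
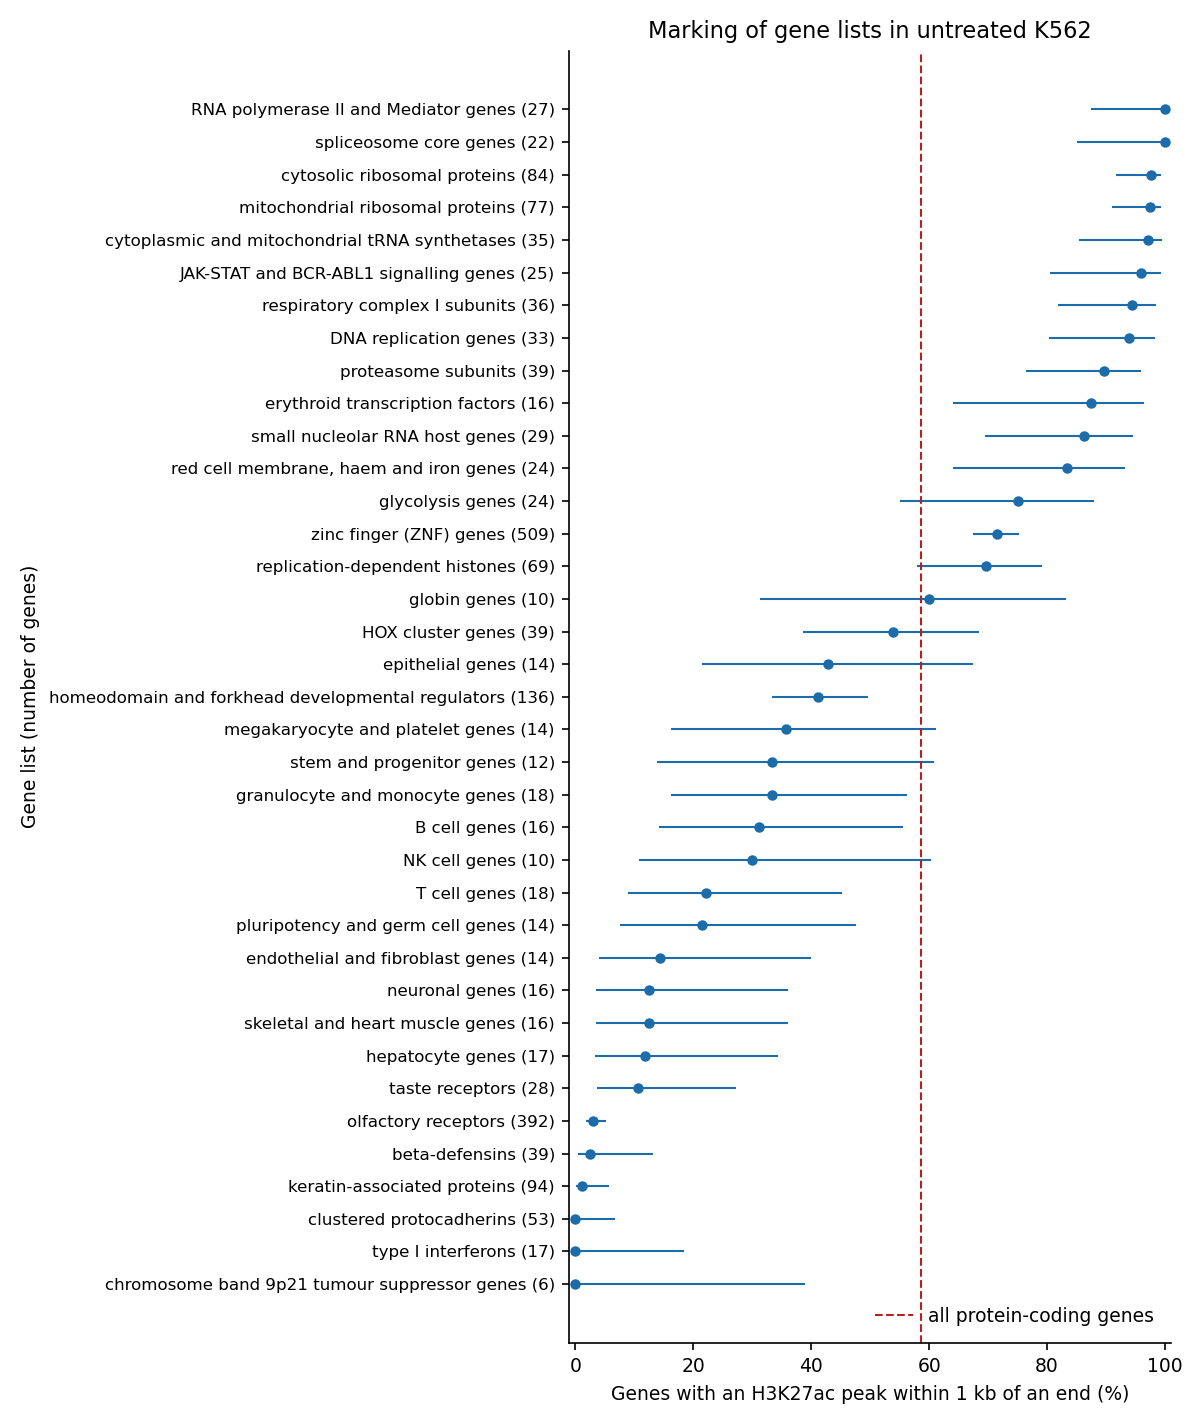
Share of each gene list with an H3K27ac peak within 1 kb of an end (horizontal axis, %), with 95% Wilson intervals as bars and the number of genes in brackets. The dashed line is the share of all protein-coding genes, 58.6%. Machinery lists lie at the top, and gene lists of other tissues and of receptor and keratin clusters at the bottom.

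Among glycolytic enzymes 18 of 24 were marked. Without a peak at an end were the tissue forms PGAM2, LDHC, PGK2 and ENO2, among others. Of the marked tissue forms, GAPDHS (234), PKLR (207), ENO3 (189) and ALDOC (92) had peaks that were also at ends of TMEM147, FDPS, PFN1 and SPAG5. HK1 had no peak nearer than 6250 bp to an outermost end but held 5 inside the gene, with a score of 282 at an annotated start there. The highest score in the group was 488 at TPI1, the triosephosphate isomerase gene, from a peak that also lies at an end of USP5. Genes of zinc finger proteins with a ZNF symbol were marked in 364 of 509 cases (71.5%, 67.4 to 75.3) and small nucleolar RNA host genes in 25 of 29. Replication-dependent histone genes had a peak at an end in 48 of 69 cases (69.6%, 57.9 to 79.2), with a median marked length of 12908 bp. Neighbours in the histone clusters share windows and peaks.

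The signalling genes downstream of BCR-ABL1 were marked in 24 of 25 cases (96.0%, 80.5 to 99.3), with a median gene-end score of 224. BCR (652) had the highest score, then the adaptor gene CRKL (441, inside the chromosome 22 stretch), ABL2 (366), ABL1 (339) and GRB2 (330). STAT5A and STAT5B lie side by side and shared a peak of score 225. The STAT5 target genes PIM1 (257), SOCS2 (148), BCL2L1 (136) and CISH (127) were all marked. MYC, a growth-promoting transcription factor gene, had a wide end peak of 3066 bp with a low score of 69. JAK3, a kinase of lymphoid cytokine receptors, was the only unmarked member, with its nearest peak 4796 bp away. The longest marked lengths in the group were 16342 bp at STAT3, 15577 bp at GRB2 and 14858 bp at PIM1.

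Of 16 erythroid transcription factor genes, 14 had a peak at an end (87.5%, 64.0 to 96.5). The median of their highest end scores was 163, against 193 over all marked protein-coding genes. In the upper quartile of all peaks were 9 of the 14, against 8612 of all 11698 marked protein-coding genes. With only scores at or above the median of all peaks the share was 75% against 54.3% of all protein-coding genes, and at or above the upper quartile 56.2% against 43.1%, both with intervals that held the share of all. The 4 marker genes of the line were all marked. At GATA1 a peak of 2803 bp and score 36 began 61 bp inside the gene (chrX:48786651-48789453), and its other end carried peaks of scores 34 and 17. TAL1 had a peak of 3573 bp and score 106 that ended 170 bp inside its start (chr1:47228593-47232165). LMO2 had a peak of 2551 bp and score 39 over its higher end and a stronger one inside the gene, of 2298 bp and score 142 (chr11:33868676-33870973). HBG1, a fetal globin gene, had a peak of score 85 lying 771 bp below its lower end and one of score 12 inside it. The widest end peak at each of GATA1, TAL1 and LMO2 was thus over 2 kb wide, with a score below 146, the median of gene-end peaks.

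**Figure D4:**
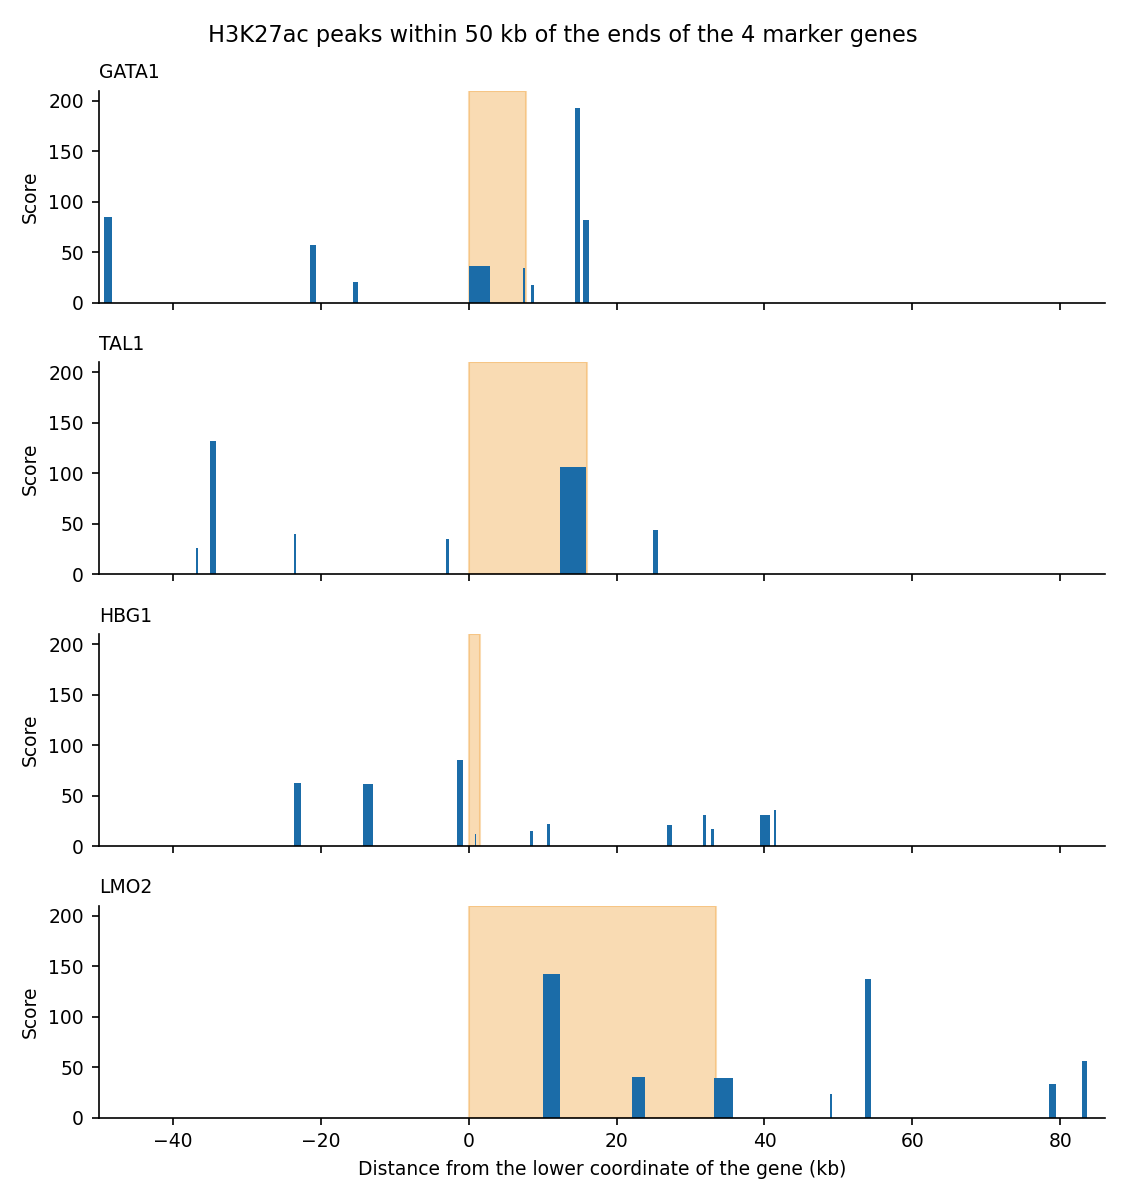
H3K27ac peaks within 50 kb of the ends of GATA1, TAL1, HBG1 and LMO2, drawn by distance from the lower coordinate of the gene (horizontal axis, kb) with the score as height (vertical axis) and the peak's width as bar width. The shaded block is the gene. The tallest bar at GATA1, of score 193, lies at the neighbouring gene HDAC6.

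Other erythroid regulators differed in where the peaks lay. KLF1 had 3 peaks inside the gene or over its start, with scores of 121, 250 and 75, the last over its start. GATA2, which precedes GATA1 in red cell development, had none at its outermost ends. One of 2357 bp and score 117 lay inside the gene, at an annotated GATA2 start and at an end of GATA2-AS1 (chr3:128488208-128490564). MYB had a peak of 2493 bp and score 170 over its start. RUNX1 had one of 1675 bp and score 126 over its outermost start. Another RUNX1 peak, of 2183 bp and score 317, lay at an annotated start inside the gene, 100548 bp from the nearest end. The highest score on the list, 391 at GFI1B, belonged to a peak that also covers the end of TSC1, a widely expressed gene, so it cannot be assigned to either. BCL11A was the member with no peak within 50 kb, and the nearest lay 154139 bp away. NFE2 (50), LYL1 (98), ZFPM1 (156), LDB1 (177, a peak also at an end of PPRC1) and ZBTB7A (197) were the other marked members.

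Peaks of 2 kb or wider were at an end of 6 of the 14 marked erythroid regulators (42.9%, 21.4 to 67.4), against 15.8% (15.2 to 16.5) of all 11698 marked protein-coding genes. The share was also high among marked ribosomal protein genes (39.0%, 29.2 to 49.8), histone genes (41.7%, 28.8 to 55.7) and small nucleolar RNA host genes (48.0%, 30 to 66.5), and low among marked ZNF genes (8.24%, 5.83 to 11.5). The wide peaks of the erythroid regulators had a median score of 138, against 197 for those of all protein-coding genes. STAT5A and STAT5B share one of the wide peaks, so the 6 genes stand for 5 peaks, and the interval and median count the shared one for each gene.

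Globin genes lay within groups of several peaks. Of 10 genes, 6 had a peak at an end and all had one within 50 kb. The alpha cluster had the stronger peaks: 245 over HBQ1, 143 and 65 over the ends of the embryonic gene HBZ, and 117 near HBM. HBA1 and HBA2, the adult alpha genes, had no peak at an end, the nearest lying 2657 bp and 6469 bp away. In the beta cluster a peak of score 62 lay over the lower end of HBB, with none at its higher end. One of 61 lay over the higher end of HBD, within 1 kb of an annotated start. The peak of 85 lay below the lower end of HBG1. The promoter table has no start for HBB or HBG1, so their peaks were not assigned to a start or a 3′ end. HBE1, the embryonic gene, had its nearest peak 5150 bp from an end. Beyond HBE1, where the locus control region of the beta cluster lies, 5 peaks of scores 17 to 36 lay between 25238 and 39635 bp above HBG1. HBA1 and HBA2, and HBG1 and HBG2, are near-identical copies. The sources used here do not say how reads that match both copies were treated, so missing peaks at these 4 genes are uncertain.

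Membrane, haem and iron genes of the red cell were marked in 20 of 24 cases (83.3%, 64.1 to 93.3), with a median score of 144. At scores at or above the median and the upper quartile of all peaks the shares were 66.7% and 45.8%, with intervals that held those of all protein-coding genes. The glycophorin gene GYPC (303), the ferrochelatase gene FECH (225), the haem synthesis genes PPOX (215) and UROS (204) and the transferrin receptor gene TFRC (176) had scores above the gene-end median. Those of PPOX and UROS were from peaks also at an end of B4GALT3 and BCCIP. Genes used mainly by red cells had both higher and lower scores, from 147 at the spectrin gene SPTB and 142 at RHAG to 82 at the Kell antigen gene KEL, 40 at the glycophorin gene GYPB and 21 at ALAS2, the erythroid enzyme that starts haem synthesis. SLC4A1, AHSP, EPB42 and ANK1 had no peak at an end, the nearest lying 1039, 17947, 10810 and 20252 bp from an end. ANK1 is a long gene and held 11 peaks inside it.

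Genes of other blood lineages had a peak at an end in 22.2% to 35.7% of cases. The intervals of the stem and progenitor (13.8 to 60.9) and NK cell (10.8 to 60.3) lists held the share of all protein-coding genes. So did that of the megakaryocyte and platelet list. A peak at the end of one gene can also lie at that of its neighbour. Over all marked protein-coding genes, the highest-scoring end peak was also at an end of another protein-coding gene in 32.1% of cases. Of 14 megakaryocyte and platelet genes 5 had a peak at an end (35.7%, 16.3 to 61.2). The highest score among them, 416 at GP1BB, lay in the chromosome 22 stretch at a peak shared with SEPTIN5, and the others were 97 or lower. FLI1, a megakaryocytic factor, had its nearest peak 1081636 bp away. Of 12 stem and progenitor genes 4 were marked, namely ETV6 (236), MEIS1 (90), HHEX (85) and KIT (33), while ERG, MECOM, PROM1 and CXCR4 had none within 50 kb of an end. MECOM held 2 peaks inside the gene, with a score of 127 at an annotated start there, and ERG held 1.

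Of 18 granulocyte and monocyte genes 6 were marked (33.3%, 16.3 to 56.3). SPI1, the master regulator of the lineage, had a score of 190, CEBPA of 124, LYZ of 77 and ITGAM of 37. The higher score of CSF3R, 323, belonged to a peak also at an end of the mitochondrial ribosomal gene MRPS15, while the peak at its own start had 147. That of CD68, 107, belonged to a peak also at an end of MPDU1. MPO and ELANE, which encode granule enzymes, had none at an end. All 18 had some peak within 50 kb. Of 18 T cell genes 4 were marked, LEF1 (113), CD3D (65), CD3E (34) and CD28 (18), and GATA3, BCL11B, IL7R, CD8A, CD8B and CTLA4 had no peak within 50 kb. At annotated starts the highest score for CD3D was 17, and CD3E has no start in the promoter table. B cell genes were marked in 5 of 16 cases. RAG1 had a score of 240 from a peak also at an end of TRAF6, a widely expressed signalling gene, and the other 4, FCRLA, EBF1, CD79A and IGLL1, had 54 or lower. MS4A1, CD79B, BLK, DNTT and POU2AF1 had none within 50 kb. Of 10 NK cell genes 3 were marked, with end scores of 81 (PRF1), 37 (NCR1) and 20 (EOMES). At their annotated starts the highest scores were 27 for PRF1, 216 for NCR1 and 20 for EOMES.

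Genes of other tissues were mostly unmarked. Only 2 of 17 hepatocyte genes, 2 of 16 neuronal genes, 2 of 16 muscle genes, 2 of 14 endothelial and fibroblast genes and 3 of 14 pluripotency and germ cell genes had a peak at an end. Where present, most scores were low, such as 20 at APOA1, 43 at SYN1, 52 at DES and 18 at POU5F1, but TAT (131), COL1A1 (123), TWIST1 (208) and ZP3 (214) were higher. ALB had 1 peak inside the gene, 1597 bp from the nearer end, and none at an end. SOX2, MYOD1, NEUROD1, TTR and COL3A1 had none within 50 kb of an end. Epithelial genes were marked in 6 of 14 cases (42.9%, 21.4 to 67.4), an interval that held the share of all protein-coding genes. They included MUC1 (312, shared with an end of THBS3), KRT8 and KRT18 with a shared peak of 306, the adhesion gene EPCAM (202) and KRT19 (156). The basal genes KRT5 and TP63 had no peak within 50 kb.

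Developmental transcription factors were marked unevenly. Of 136 genes of homeodomain, paired box, forkhead, T-box, SOX and GATA families 56 had a peak at an end (41.2%, 33.3 to 49.6), and 42 had none within 50 kb. FOXD2 (359), the cell cycle factor FOXM1 (309) and SOX6 (289) had the highest scores. The 39 HOX genes, 21 of them marked, differed by cluster. In the HOXB cluster 7 of 10 genes were marked, with a median marked length of 13575 bp, and in the HOXC cluster 7 of 9, with 8248 bp. The HOXD cluster had 5 of 9 marked with 5833 bp, and the HOXA cluster 2 of 11 with 2063 bp. HOXC4, HOXC5 and HOXC6 shared the highest score, 260, and HOXB9 had 210. HOXB3 had no peak at its own ends but the longest marked length of the HOX genes, 19910 bp.

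For the longest marked lengths of protein-coding genes, genes within 100 kb of one already named were skipped. They were 22902 bp at PGPEP1, 22611 bp at FAM222B and 21834 bp at ASPRV1. The windows at both ends overlap in short genes, so longer genes have more sequence counted. ASPRV1 is a skin protease gene whose long annotated span holds 12 peaks. Then came the histone gene H4C5 (21245 bp), HOXB3 (19910 bp), PCED1B (19690 bp) and PHACTR4 (19631 bp). Further down were the kinase gene STK11 (18043 bp) and the cell cycle factor gene E2F3 (17970 bp). NOS3 (18720 bp) and HOXB3 were the members of these 15 with no peak at an end.

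Clustered receptor, keratin and defence genes lay in long stretches without peaks. Olfactory receptors had a peak at an end in 12 of 392 cases (3.06%, 1.76 to 5.27), and none of the 12 scores exceeded 105 (OR1F1). Taste receptors had 3 of 28, keratin-associated proteins 1 of 94, beta-defensins 1 of 39, type I interferons 0 of 17 (up to 18.4% by the interval) and clustered protocadherins 0 of 53 (up to 6.76%). In all, 509 stretches over 1 Mb held no peak, and 1264 protein-coding genes lay inside them. Among stretches of any length between neighbouring peaks, those richest in genes held defensin and FAM90A genes on chromosome 8 (52 genes), olfactory receptors on chromosome 11 (50), keratin and KRTAP genes on chromosome 17 (48) and the epidermal gene complex on chromosome 1 (38). Next came KRTAP genes on chromosome 21 (36) and the alpha and beta protocadherins on chromosome 5 (32).

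One such stretch held genes that many other cells express. It ran from 20693385 to 26890282 on chromosome 9 (6.2 Mb) and held 25 protein-coding genes, the ninth in both length and number of genes. All 6 genes of the 9p21 list were inside it: the cell cycle inhibitors CDKN2A and CDKN2B, the methylthioadenosine phosphorylase gene MTAP, KLHL9, DMRTA1 and IFNE. Their nearest peaks lay between 636281 bp (KLHL9) and 1753440 bp (DMRTA1) away. All 17 type I interferon genes except IFNK also lay there. K562 is known to lack CDKN2A. Absence of the DNA and absence of the mark cannot be told apart in a peak list.

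Among other gene classes, tRNA genes had a share whose interval held that of protein-coding genes: 274 of 443 (61.9%, 57.2 to 66.3), and 53.8% (48.4 to 59.0) of the 333 that lay over 5 kb from a protein-coding end. On chromosome 1 the share was 35.7% of 98, on chromosome 6 it was 68.4% of 155 and on chromosome 17 it was 90.9% of 33. The 274 genes shared 231 peaks, of which 138 were at no other kind of gene and had a median score of 79. A peak of score 644 lay at the selenocysteine tRNA gene TRU-TCA1-1. Long noncoding RNA genes were marked in 22.9% (22.3 to 23.6) of cases, 49.6% of those with an end within 5 kb of a protein-coding end and 11.5% of the rest. The shares were 32.5% for snRNA genes, 14.7% for miRNA genes, 10.5% for snoRNA genes and 4.15% for pseudogenes. Immunoglobulin and T cell receptor V segments had 4 of 248 (1.61%).

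Of the miRNA genes over 5 kb from a protein-coding end, those of the MIR17HG cluster, which promotes growth, had the highest score. A peak of 3161 bp and score 549 covered the start of the host gene (chr13:91347026-91350186) and ended 419 bp before MIR17. The MIR301B and MIR130B pair followed with 506 (chr22:21651096-21652960), in the chromosome 22 stretch. Of the blood miRNAs, MIR142 lay under a peak of score 153, MIR223 had one of 42 at 901 bp, and the erythroid pair MIR144 and MIR451A one of 27, 802 bp from MIR144. MIR221 and MIR222, which target the KIT transcript, had no peak within 50 kb. The mature forms are shown, as a guide to which targets these loci address, with the seed (bases 2 to 8) in capitals, from the RefSeq miRNA table. The first pair and the pair from chromosome 22 each share a seed.
hsa-miR-17-5p: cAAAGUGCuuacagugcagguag
hsa-miR-20a-5p: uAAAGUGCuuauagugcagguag
hsa-miR-18a-5p: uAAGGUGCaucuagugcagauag
hsa-miR-19a-3p: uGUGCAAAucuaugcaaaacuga
hsa-miR-130b-3p: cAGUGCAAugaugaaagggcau
hsa-miR-301b-3p: cAGUGCAAugauauugucaaagc
hsa-miR-142-3p: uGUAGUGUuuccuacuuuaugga
hsa-miR-223-3p: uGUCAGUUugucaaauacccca
hsa-miR-144-3p: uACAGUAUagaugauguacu

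Marked and unmarked promoters differed in base composition. For each of the 15812 protein-coding genes with a start in the table, the outermost start was taken with 250 bases before and 50 after it, and the window was called marked if a peak covered any of it (8696 windows). The median CpG content, as observed over expected, was 0.87 (quartiles 0.75 and 0.97) in marked windows and 0.39 (0.19 and 0.73) in the 7116 others. The median GC content was 66.0% and 56.3%. The share marked was 5.83% (4.88 to 6.95) below a CpG value of 0.2, 34.3% (31.9 to 36.8) between 0.4 and 0.6 and 81.4% (80.5 to 82.3) above 0.8. The median score of marked windows went from 65.0 to 211 over the same bins. The printed windows show both kinds: NUP214, YDJC and NDUFS7 had CpG values of 0.97, 0.91 and 1.04. KLF1 and GATA1, low in CpG at 0.25 and 0.20, were marked within 1 kb of their starts, while BCL11A, at 0.81, was not.

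Genes with a divergent partner, where the partner is a protein-coding or long noncoding RNA gene, had a peak within 1 kb of the start in 2486 of 2855 cases (87.1%, 85.8 to 88.3). Other genes had one in 6940 of 12957 (53.6%, 52.7 to 54.4). The partner's start lies within the same 1 kb, so a peak at that start can count for both genes. Its part in the difference was not tested. The order held within each CpG bin, though intervals overlapped in the lowest: 92.7% against 81.4% above 0.8, 66.7% against 41.1% between 0.4 and 0.6, and 16% (8.34 to 28.5) against 9.12% (7.92 to 10.5) below 0.2.

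Of the 11 motifs, 6 were found in a larger share of marked than of unmarked windows with intervals apart, and 4 in a smaller share. The ETS letters stood in 10.5% (9.87 to 11.2) of marked and 0.871% (0.68 to 1.12) of unmarked windows, 6.17% of all. The YY1 letters stood in 6.19% and 1.03% (3.86% of all), the NRF1 letters in 6.44% and 1.63% (4.28%) and the CRE letters in 3.61% and 1.28% (2.56%). GC boxes stood in 74.9% and 38.1% (58.3%). CACCC letters, which KLF factors bind, stood in 20.6% (19.8 to 21.5) and 18.7% (17.8 to 19.6), 19.7% of all. CCAAT letters stood in 37.1% (36.1 to 38.1) and 35.5% (34.4 to 36.6), with overlapping intervals (36.4%).

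The other 4 motifs went the other way. GATA letters stood in 4.34% (3.93 to 4.78) of marked and 11.7% (10.9 to 12.4) of unmarked windows (7.63% of all), NFE2 letters in 3.77% and 8.07% (5.70%), E-boxes in 58.0% and 72.7%, and TATA letters in 4.47% and 16.2% (9.75%). Several of these motifs hold a CpG or few G and C, so the comparison was repeated in the windows with a CpG value above 0.6. There the ETS letters stood in 11.2% (10.6 to 12) and 1.87% (1.41 to 2.47), the YY1 letters in 6.53% and 1.27%, and the TATA letters in 3.95% and 8.22%. The GATA letters stood in 3.58% (3.19 to 4.02) and 4.13% (3.42 to 4.98) and the NFE2 letters in 3.09% and 3.02%, with overlapping intervals. The CACCC letters changed direction there, at 20.6% (19.7 to 21.5) and 21.5% (20 to 23.2), again with overlapping intervals. The CCAAT letters stood in 36.6% (35.6 to 37.7) and 31.8% (30 to 33.7), with intervals apart.

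**Figure D5:**
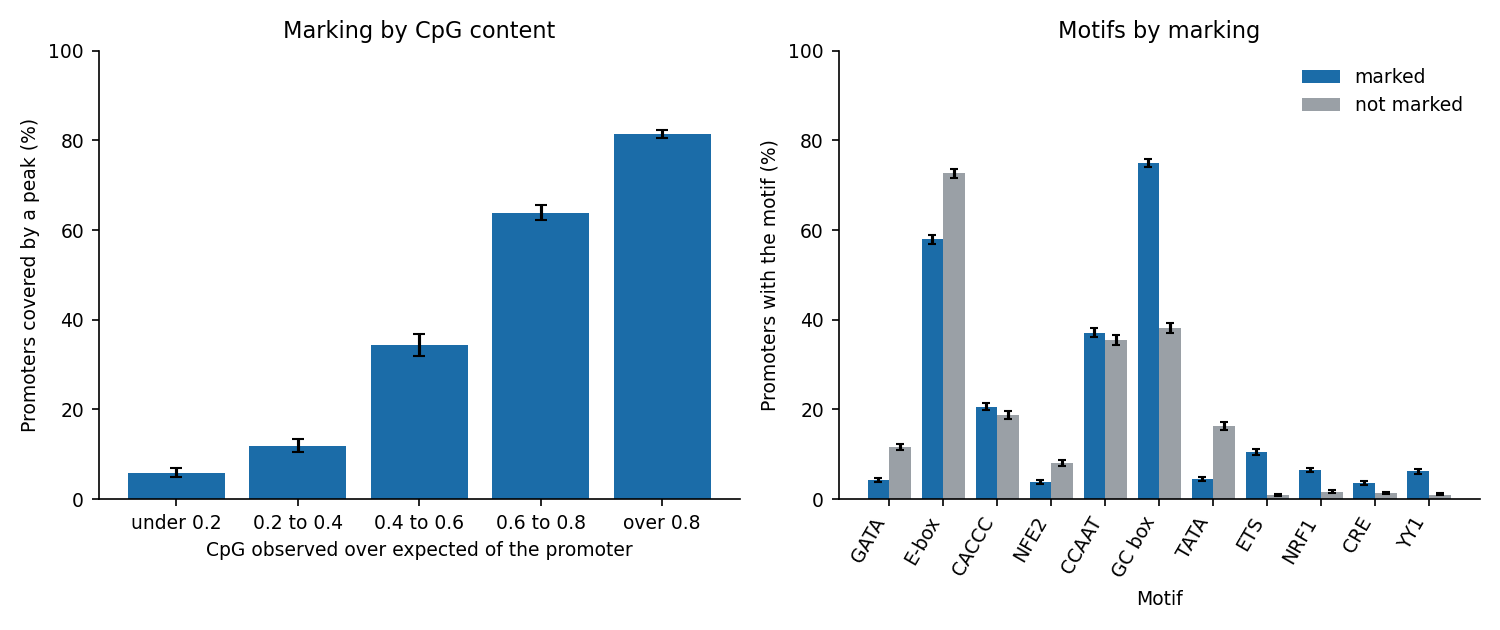
Left, share of promoters covered by a peak (vertical axis, %) by CpG observed over expected of the 300-base window (horizontal axis). Right, share of marked and unmarked promoters (vertical axis, %) that hold each of 11 motifs (horizontal axis). Bars on both sides carry 95% Wilson intervals. The share marked rises from 5.83% to 81.4% with CpG content, and ETS letters stand in 10.5% of marked and 0.871% of unmarked promoters.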

How the data were processed

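H3K27ac and input libraries of untreated K562 cells were used, 1 of each. The 2 libraries of treated cells entered only the count of peaks in the series. Per the submitters' processing notes, the tools were MACS2 2.1.1, deepTools 3.2.1 and Bowtie2 2.3.4.3, and the builds hg19 and hg38. Coordinates were read as hg38. The settings of the tools, the peak threshold, the part played by the input and the treatment of duplicate reads are not given in these sources. For each library there is a list of peaks with a score, which the authors deposited without its formula. The lists hold no read counts, so depth is unknown. Scores were used only to rank, filter and describe peaks within this list.

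Peaks were taken on chromosomes 1 to 22 and X, less those overlapping an input peak by at least 1 bp. Genes came from the RefSeq gene table of GRCh38.p14, and starts and sequences from its promoter and miRNA tables. Coordinates count from 1. Analysis used Python 3.11.15 with pandas 2.3.3, numpy 2.4.6 and scipy 1.17.1. Overlap functions were tested on simulated data against bedtools. The peak set and gene lists were chosen with earlier results of these data known. Genes were named by rank: 15 gene-end and 15 distal peaks of the highest score, the 10 widest peaks and the 15 longest marked lengths. For the 15 longest, genes within 100 kb of one already named were skipped. The 4 markers, and list members by marked length, were named too. The HOX clusters, tRNA and miRNA genes, the peak-free stretches, the chromosome 22 stretch, the motif examples and the list members named for their score were chosen after their values were seen. Some list members that enter the counts are not reported here by name.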

Additional observations from a re-analysis of the deposited data

How the results depend on the processing

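Leaving the peaks on input peaks in (38539 peaks), removing those within 1 kb of an input peak (38526) and using every sequence name (38595) kept the shares of peaks at gene ends and of marked protein-coding genes within their intervals. Scores at or above the median or the upper quartile left 19312 and 9669 peaks, with 59.8% and 84.2% at gene ends and 54.3% and 43.1% of protein-coding genes marked. Gene ends within 2.5 kb gave 44.2% of peaks and 62.2% of genes, within 500 bp 34.1% and 56.7%, and annotated starts only 28.1% and 61.4%. Ends of protein-coding genes only gave 29.0% of peaks. The median marked length of 3551 bp was 1450 bp in windows of 10 kb, 5958 bp in windows of 100 kb and 2585 bp with scores at or above the median. Over 8 alternatives, 11 to 14 lists had an interval above the share of all protein-coding genes and 16 to 20 below it, and none moved from one side to the other. The erythroid factor list and the red cell membrane, haem and iron list were no longer above at either stricter score, and the B cell list was no longer below with starts only. The counts of motifs with a higher and a lower share in marked promoters were 6 and 4 also with scores at or above the median. An alternative chosen after seeing the data, leaving out chromosome 22 from 19 to 22 Mb, kept the gene-end share of the 200 highest-scoring peaks at 91.0%. No paired analysis was possible because each group has 1 library.

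The depth of the library is unknown, so a gene without a peak is a gene with no peak called at this depth. Neighbouring genes share peaks and windows, and members of clusters are not independent. The gene table has no strand, so a gene end can be a start or a 3′ end.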

Other observations

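The window from 1000001 to 2000000 on chromosome 19 held 87 peaks, the most of any 1 Mb window, and the window from 27000001 to 28000000 on chromosome 6, with histone and tRNA genes, held 83, of which 66 were at gene ends. The window from 15000001 to 16000000 on chromosome 6 held 66 peaks, of which 4 were at gene ends. Among long noncoding RNA genes over 5 kb from a protein-coding end, scores were highest at LINC01003 (834), LARRPM (618), MIR17HG (549) and MKLN1-AS (529). NORAD, a cytoplasmic RNA that binds PUMILIO proteins, had a score of 392. Further peaks over 5 kb from every annotated end and start lay inside DPYSL2 (513), the glycolytic regulator gene PFKFB3 (443), the kinase gene ITPKB (441) and the chromatin remodeller gene ARID1B (425).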
